A study of Saccharomyces cerevisiae with 17 samples.

Results

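The second cooling step of a daily temperature cycle was examined in the yeast Saccharomyces cerevisiae, between the point at which a falling temperature passed 21 °C (hour 6 of a 24-h cycle) and the point at which it passed 14.6 °C (hour 9). Its arrays were taken by sample title, and it compares 4 of the series' 17 arrays, 2 at each point, over all 5656 genes measured. All cultures held the laboratory strain CEN.PK113-7D (MATa, MAL2-8C, SUC2), grown without oxygen in chemostats, vessels fed and drained at a constant rate (0.03 per hour) so that the glucose in the feed limits growth. In the cycle, temperature followed a sine between 30 °C at hour 0 and 12 °C at hour 12, and points were taken from 2 independent cultures over cycles 5 and 6, so both sides of the step came from the same cultures. The remaining points lie at 30 °C, at 12 °C, at 21 °C with the temperature rising (hour 18) and at 27.4 °C (hour 21), and separate cultures were kept at a constant 12 °C or 30 °C. The study asked how far the responses to such cycles can be foreseen from cultures at constant temperature. RNA was hybridised to Affymetrix Yeast S98 arrays, on which a probe set is a group of short probes for one transcript. A signal below is the deposited intensity of a gene's probe set, and a change is the difference of mean log2 signals, 14.6 °C minus 21 °C, with its standard error (n = 2 arrays on each side).

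Yeast cells sense glucose, and ample glucose turns off the genes for other sugars, for making glucose from smaller molecules and for respiration, a control known as glucose repression. When glucose is scarce, as in a glucose-limited chemostat, these genes are partly released from it. Cooling slows enzymes, transport and translation, and cold-exposed yeast is known to raise many genes that build ribosomes.

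The markers of the labelled strain and culture given here were present on all 4 arrays, at differing levels. The a-factor gene MFA1 lay between 3931.9 and 7388.7 and the alpha-factor receptor gene STE2 between 635.6 and 734.2, as a MATa strain expresses. The anaerobic genes ANB1 (4285.8 to 5139.0), DAN1 (5779.6 to 6991.8) and TIR1 (6205.9 to 10310.7) were high. A further anaerobic gene, COX5B, was above background but not high (79.8 to 147.3). Among genes of the opposite mating type, STE3 stayed between 34.9 and 56.0, SAG1 between 61.2 and 120.5, and MF(ALPHA)1 was well above background (534.5 to 1455.6). Over all genes the 2 arrays at 21 °C correlated at 0.984 and the 2 at 14.6 °C at 0.970, with 5331 to 5360 genes above background per array. The second array at 14.6 °C stood apart in its ribosomal RNA control probe sets, at a mean log2 of 7.31 against 9.11, 9.35 and 9.46 on the others. The median difference between the 2 arrays of a point was 0.32 on the log2 scale at 14.6 °C and 0.21 at 21 °C.

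Few genes passed the test at this step, and most of those with a clear signal were lower at 14.6 °C. The genes that fell include 4 for maltose and sucrose use, the gluconeogenic gene PCK1, 2 amino acid permease genes and the sulfate permease gene SUL1, and the genes that rose include the RNA helicase gene DBP2 and the tRNA deaminase gene TAD2. In such bulk RNA a change in the share of cells that express a gene and a change of RNA per cell cannot be told apart. Of 5656 genes, 39 passed an adjusted p of 0.05 in limma's moderated test (0.69%), 15 higher (0.265%) and 24 lower (0.424%). Of the 39, 24 lay above background on all 4 arrays, 7 that rose and 17 that fell, and 743 genes had an unadjusted p under 0.05, and the median change of all genes was -0.05. The signals of the 2 points did not overlap for 2710 genes (47.9%), 1220 higher at 14.6 °C (21.6%) and 1490 lower (26.3%). The count was 9 without the second array at 14.6 °C, 63 without the first, 19 and 15 without either array at 21 °C, and 2 in a fit of the 4 arrays alone. Of the 24 clear genes, 21 did not pass without the second array at 14.6 °C, 4 without the first, 18 and 22 without the first and second array at 21 °C, and none of the 24 in the fit of the 4 arrays alone. In 20 of the 24 clear genes the second array at 14.6 °C lay farther from the 21 °C mean than the first, as it did for 61.6% of all genes above background. Whether the quality of that array plays a part was not tested.

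**Figure D1:**
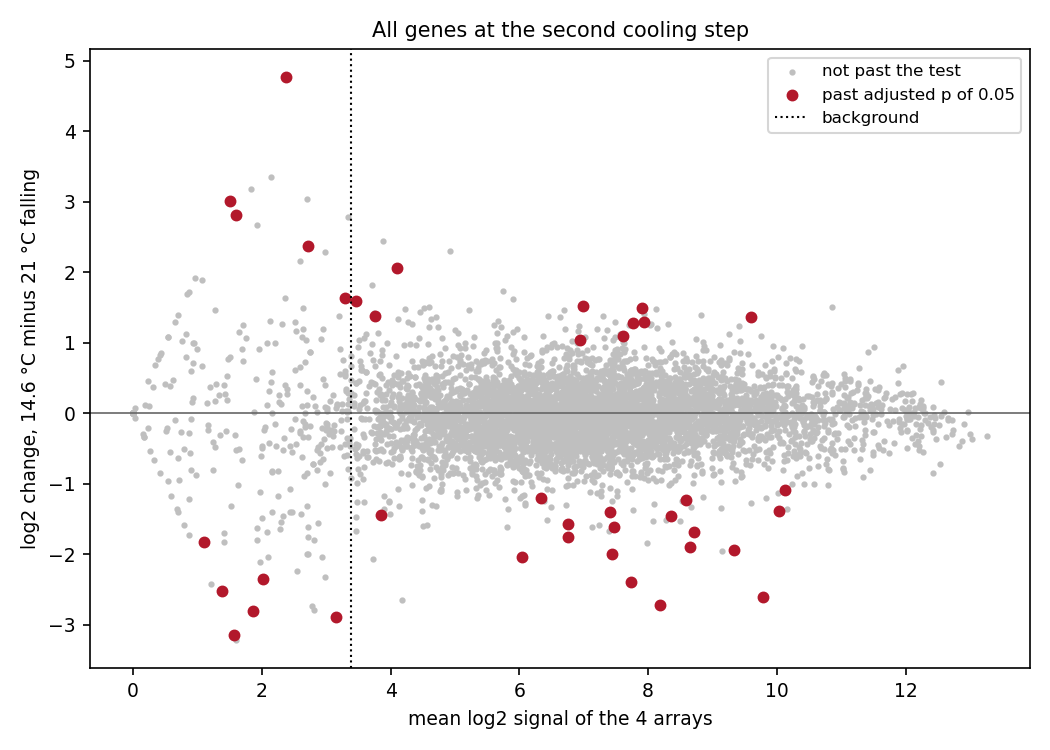
Change of every gene (vertical axis, log2 of signal at 14.6 °C minus 21 °C) against its mean log2 signal on the 4 arrays (horizontal axis). The 39 genes past the adjusted p of 0.05 are red, and 15 of them lie above 0 and 24 below. The dotted line is background at a log2 of 3.39, and several red points at its left are genes that were dim on both sides.

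**Figure D2:**
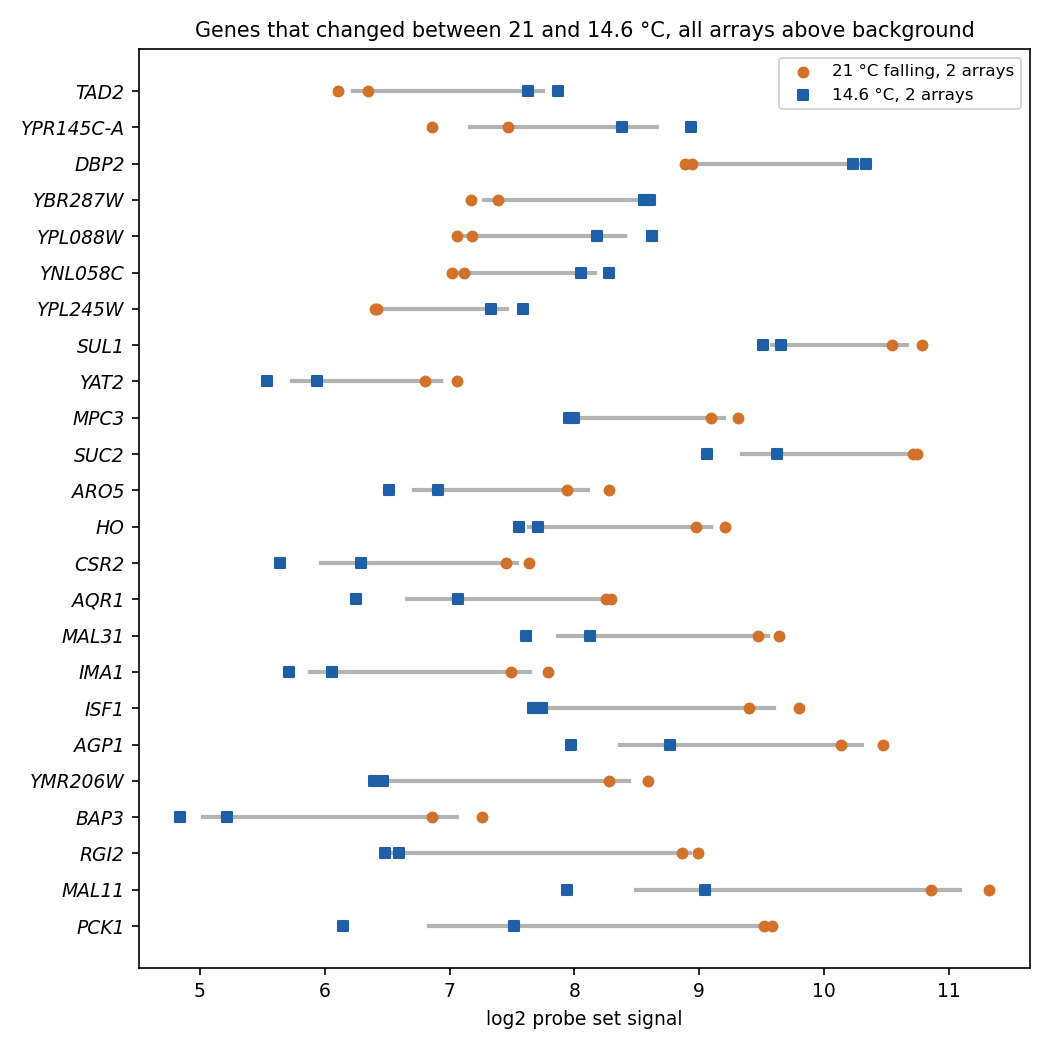
The 24 genes that passed the test and lay above background on all arrays, with log2 signal of the 2 arrays at 21 °C (circles) and the 2 at 14.6 °C (squares), and a grey bar between the means. The 7 genes at the top rose and the 17 below fell, from SUL1 with a change of -1.08 to PCK1 with -2.72, and in none of them do circles and squares overlap.

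The largest group of related genes to fall was that for maltose and sucrose. SUC2 (YIL162W) encodes invertase, which splits sucrose outside the cell. Its signals were 1719.1 and 1681.2 at 21 °C and 789.6 and 536.0 at 14.6 °C. Both cold arrays lay below both warm ones, and the change was -1.39 ± 0.22 (limma adjusted p = 0.011). MAL11 (YGR289C), an alpha-glucoside transporter of broad range, measured 1856.9 and 2561.8 at 21 °C and 528.6 and 245.4 at 14.6 °C. This was the steepest fall of the group (-2.60 ± 0.35, limma adjusted p = 0.00487), although the 2 cold arrays differed from each other by more than the 2 warm ones. MAL31 (YBR298C), the maltose permease, measured 707.7 and 798.4, then 278.5 and 195.2. It fell by 1.69 with an SE of 0.26 (limma adjusted p = 0.0103). IMA1, an isomaltase, measured 180.4 and 220.8, then 66.6 and 52.4. Its change was -1.76 ± 0.29 (limma adjusted p = 0.017), and it lies beside MAL11 in the reference gene order with MAL13 between them.

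The other 3 listed genes of this kind did not pass. MAL33, an activator of maltose genes, measured 297.1 and 350.4, then 206.2 and 190.3 (change -0.70, limma adjusted p = 0.156). MAL13, a further activator, measured 22.1 and 37.5, then 21.7 and 15.7 (-0.64). IMA5, another isomaltase, measured 27.4 and 20.8, then 13.2 and 6.6 (-1.35). Of the 7 measured members 4 fell (57.1%, against 0.424% of all genes) and none rose. The list's median change was -1.39 against -0.05 for all genes. All 7 were lower without overlap, as were 26.3% of all genes. Across the 15 alternatives run for lists its median lay between -1.85 and -1.11. Maltose loci are repeated in the yeast genome with near-identical copies, so a probe set may read more than the copy it is named for. Without the second array at 14.6 °C the changes of SUC2, MAL31, IMA1 and MAL11 were -1.11, -1.43, -1.58 and -2.04. Without the second array at 21 °C they were -1.40, -1.60, -1.61 and -2.37, and these calls were lost in both cases.

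In the gluconeogenesis and glyoxylate cycle list 2 genes fell, PCK1 and YAT2. PCK1 (YKR097W) encodes phosphoenolpyruvate carboxykinase, the committing enzyme of gluconeogenesis. It measured 732.5 and 768.2 at 21 °C and 183.3 and 71.0 at 14.6 °C. The change was the largest of the 24 clear genes that passed (-2.72 ± 0.39, limma adjusted p = 0.00693). It was -2.03 without the second cold array and -2.68 without the second array at 21 °C, and the call was lost each time. YAT2, a carnitine acetyltransferase that helps move acetyl groups between compartments, measured 112.0 and 133.1, then 61.2 and 46.5. It fell by 1.19 with an SE of 0.21 (limma adjusted p = 0.022). CAT8, an activator of gluconeogenic genes, measured 29.3 and 25.8, then 11.5 and 10.7, a change of -1.31 that did not pass (limma adjusted p = 0.117). ICL1, isocitrate lyase of the glyoxylate cycle, overlapped between the points (205.5 and 252.9, then 216.1 and 161.8). Over the 24 measured genes of that list 2 fell (8.33%, against 0.424% of all genes) and none rose. A change below 0 was seen in 19, against 54.5% of all genes, and the median was -0.29. Single changes in the list ran from -2.72 to 1.31.

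A gene linked to respiratory growth had the lowest adjusted p of the clear genes. RGI2 (YIL057C), induced in respiratory growth, measured 509.1 and 465.8 at 21 °C and 96.6 and 89.6 at 14.6 °C. Replicates lay close together at both points, and the change was -2.39 ± 0.22 (limma adjusted p = 0.000407). ISF1, a gene linked to mitochondrial function, measured 674.6 and 888.6, then 204.0 and 214.4. It fell by 1.89 with an SE of 0.23 (limma adjusted p = 0.00313). RGI2 and ISF1 passed in every alternative except the fit of the 4 arrays alone. MPC3, a subunit of the mitochondrial pyruvate carrier, measured 545.1 and 634.2, then 247.8 and 255.8. Its change was -1.22 ± 0.24 (limma adjusted p = 0.0433), and it did not pass without any one of the 4 arrays or with arrays centred on their median.

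No gene of the respiratory chain itself passed, although nearly all lay on one side of 0. Of its 43 measured genes, ATP synthase included, none rose or fell, 40 had a change below 0, 35 were lower without overlap, and the median was -0.51. The mean log2 level of these genes was 9.20 and 9.42 at 21 °C and 8.76 and 8.83 at 14.6 °C. All 14 genes of the citric acid cycle had a change below 0 and none passed, with a median of -0.51, and 11 were lower without overlap. For comparison, 54.5% of all genes had a change below 0 and 26.3% were lower without overlap. The member farthest below 0 in each list is given, chosen after its values were seen. NDI1, the internal NADH dehydrogenase, measured 446.4 and 510.9, then 212.0 and 84.8 (-1.83, limma adjusted p = 0.0638). ACO1, aconitase, measured 1954.5 and 1934.7, then 1130.8 and 835.7 (-1.0, limma adjusted p = 0.103). In the opposite direction stood COX5B, the cytochrome oxidase subunit used without oxygen, at 89.4 and 79.8, then 105.7 and 147.3 (0.56). Over the alternatives the list medians stayed below 0, from -0.63 to -0.38 for the chain and from -0.51 to -0.39 for the cycle. Peroxisomal fatty acid oxidation (19 genes, none past the test) had a median of -0.41.

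The genes of glucose uptake and sensing did not move as one group. None of 19 passed, 9 had a change above 0 and 10 below. HXT4, a high-affinity glucose transporter, measured 218.5 and 130.3, then 415.0 and 388.6 (1.25 ± 0.39, limma adjusted p = 0.18). HXT3, a low-affinity transporter, measured 467.7 and 489.4, then 892.9 and 863.8 (0.88 ± 0.22, limma adjusted p = 0.0944). MIG2, a repressor that acts in glucose repression, measured 53.2 and 71.5, then 134.7 and 186.2 (1.36, limma adjusted p = 0.155). In all 3 genes the cold arrays lay above the warm ones, yet none passed. The glucose sensor gene SNF3 lay the other way, at 81.7 and 119.1, then 47.4 and 40.5 (-1.17, limma adjusted p = 0.17). HXK2, a hexokinase that also acts in glucose repression, measured 2392.5 and 2648.5, then 1334.4 and 1164.2 (-1.01 ± 0.21, limma adjusted p = 0.0544). It lay farthest below 0 among the 32 genes of glycolysis, ethanol and glycerol, of which none passed and 28 had a change below 0 (median -0.23).

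Of the amino acid permeases AGP1 and BAP3 fell, as did 2 other membrane transporters, AQR1 and SUL1. AGP1 (YCL025C), a permease for many amino acids, measured 1126.7 and 1419.3 at 21 °C and 435.0 and 251.2 at 14.6 °C. It fell by 1.94 with an SE of 0.27 (limma adjusted p = 0.00595). BAP3, a permease for branched-chain amino acids, measured 116.4 and 152.9, then 37.3 and 28.6. Its change was -2.03 ± 0.33 (limma adjusted p = 0.0156). AQR1, a membrane transporter that can export amino acids, measured 304.6 and 313.5, then 134.2 and 76.1, and fell by 1.61 with an SE of 0.30 (limma adjusted p = 0.0314). SUL1, a high-affinity sulfate permease, measured 1494.7 and 1761.7, then 807.0 and 728.1 (-1.08 ± 0.20, limma adjusted p = 0.0314). In each of these 4 genes both cold arrays lay under both warm ones. Without the second cold array the changes of AGP1, BAP3, AQR1 and SUL1 were -1.54, -1.84, -1.20 and -1.01. Without the second array at 21 °C they were -1.77, -1.83, -1.59 and -0.96, and these calls were lost in both cases.

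Other permeases lay below 0 without passing. DIP5, for acidic amino acids, measured 1064.7 and 1174.0, then 420.4 and 196.9 (-1.96 ± 0.46, limma adjusted p = 0.0806). GNP1, for glutamine, measured 258.8 and 266.0, then 138.9 and 54.8 (-1.59). PTR2, for small peptides, measured 591.6 and 549.8, then 322.3 and 180.3 (-1.24). In these 3 genes the fall on the second cold array was the deeper one. Of 32 amino acid and peptide permeases 2 fell (6.25%, against 0.424% of all genes) and none rose. A change below 0 was seen in 26, against 54.5% of all genes. Without overlap 14 were lower and 3 higher, against 26.3% and 21.6% of all genes. The median was -0.51, ranging from -0.76 to -0.13 over the alternatives. Amino acid biosynthesis was also low. None of its 62 genes passed, 54 had a change below 0, and the median was -0.35. Without overlap 35 were lower, as were 26.3% of all genes. ILV2, the entry enzyme of branched-chain amino acid synthesis, measured 1277.0 and 1485.0, then 675.2 and 532.4 (-1.20, limma adjusted p = 0.0754). GCN4, the activator of these genes, measured 5302.2 and 5402.2, then 4082.2 and 4053.4 (-0.40, limma adjusted p = 0.416), although its activity is known to be set mainly through translation. In the sulfate and methionine list SUL1 was the only one of 29 genes to pass.

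**Figure D3:**
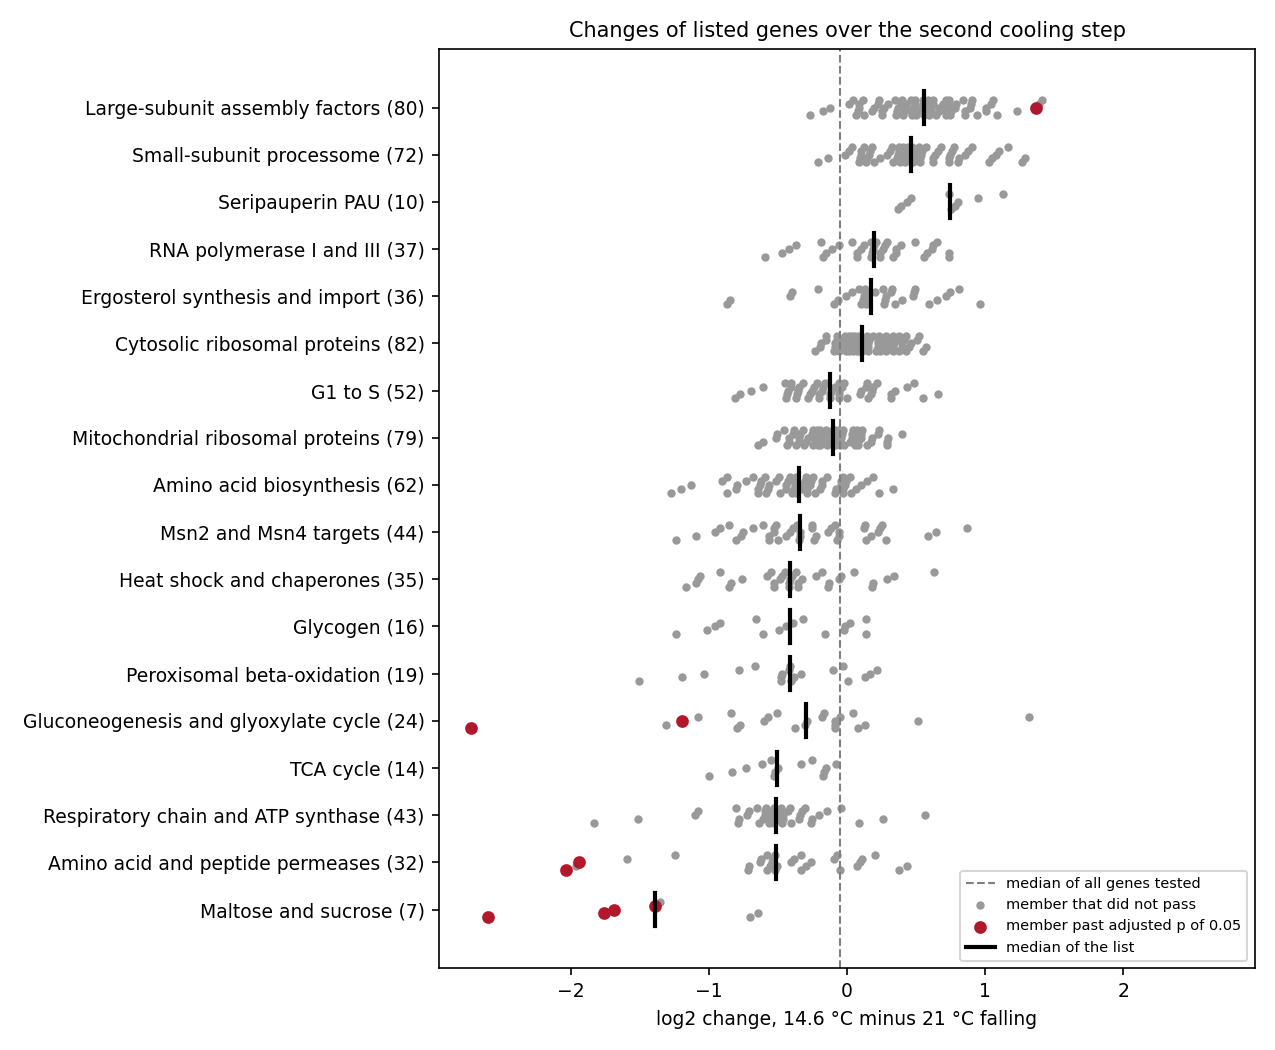
Log2 change of every measured member of 18 gene lists, with the number of members in parentheses, 14.6 °C minus 21 °C. Black bars are list medians, red points passed the adjusted p of 0.05 and the dashed line is the median of all genes (-0.05). The seripauperin list, of small cell wall proteins, lies farthest right (median 0.74) with no red point. Ribosome assembly lists also lie to the right (medians 0.56 and 0.46) with 1 red point, and maltose and sucrose genes lie farthest left (median -1.39).

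Genes that build ribosomes lay above 0 almost throughout, but only DBP2 passed. DBP2 (YNL112W) is a DEAD-box RNA helicase that acts in ribosomal RNA processing and in mRNA assembly. It measured 474.1 and 491.8 at 21 °C and 1201.1 and 1293.5 at 14.6 °C. The replicates were tight on both sides, and it rose by 1.37 with an SE of 0.20 (limma adjusted p = 0.00897). The rise was 1.31 without the second cold array and 1.39 without the second array at 21 °C, and the call was lost each time. Of 80 factors that assemble the large ribosomal subunit, 1 rose and none fell, 77 had a change above 0, and 61 were higher without overlap. Their mean log2 level was 7.41 and 7.44 at 21 °C and 7.97 and 7.98 at 14.6 °C, so the arrays of each point lay close together. The median change was 0.56, within 0.47 and 0.63 over the alternatives. Of 72 genes of the small-subunit processome, which cuts and folds the precursor of the small subunit, none passed, 69 had a change above 0 and the median was 0.46. Among all genes 44.9% had a change above 0 and 21.6% were higher without overlap.

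Other assembly factors did not pass. LOC1, which had the largest change of the large-subunit list, measured 135.2 and 166.4, then 305.2 and 522.8 (1.41 ± 0.33, limma adjusted p = 0.0813). RRP9, a part of the U3 particle with the largest change of the small-subunit list, measured 210.9 and 61.7, then 310.7 and 250.4 (1.29, limma adjusted p = 0.216). Both were chosen after their values were seen, as were BUD20 and DBP8. BUD20, a shuttling factor that exports the large subunit, measured 320.3 and 278.6, then 524.3 and 732.4 (1.05, limma adjusted p = 0.0829). DBP8, a helicase of the small subunit, measured 223.5 and 130.7, then 354.3 and 477.5 (1.27, limma adjusted p = 0.0667). NSR1, a nucleolar protein known to be induced by cold, measured 633.7 and 800.8, then 1108.4 and 1179.9 (0.68 ± 0.27, limma adjusted p = 0.3). All 5 were higher at 14.6 °C on both arrays. On arrays simulated with independent noise the fit found 2.1% of genes given a log2 change of 0.5 and 29.7% of those given 1. Deviations shared by many genes of an array were not simulated. Why these listed genes did not pass was not tested.

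Other parts of the protein synthesis machinery moved less. TAD2 (YJL035C), the catalytic subunit of the enzyme that converts adenosine to inosine in tRNA anticodons, measured 68.9 and 81.6, then 198.4 and 233.5. It rose by 1.52 with an SE of 0.24 (limma adjusted p = 0.011), the largest of the 7 clear rises, but did not pass without the second cold array or without either array at 21 °C. It was the only one of 45 tRNA modification and synthetase genes to pass, and the list's median was 0.09. The 37 genes of RNA polymerases I and III, which make ribosomal RNA, 5S RNA and tRNA, had a median of 0.20, and the 27 genes of the nuclear exosome and RNA export had 0.22. For the 82 cytosolic ribosomal proteins the median was 0.11 and none passed. Mitochondrial ribosomal proteins lay at -0.10 (79 genes, none past the test).

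The remaining rises above background belong to genes with little known function. YBR287W, a putative membrane transporter, measured 144.0 and 167.7, then 376.9 and 388.5 (1.30 ± 0.20, limma adjusted p = 0.0111). YPL088W, a putative aryl alcohol dehydrogenase, measured 133.7 and 144.8, then 290.2 and 394.7 (1.28, limma adjusted p = 0.0208). The uncharacterised gene YNL058C measured 138.5 and 129.9, then 265.7 and 310.5 (1.10, limma adjusted p = 0.0234). Also uncharacterised, YPL245W measured 85.8 and 84.8, then 160.9 and 192.2 (1.04, limma adjusted p = 0.0421), a call lost without any one of the 4 arrays and under quantile normalization. YPR145C-A measured 177.5 and 115.9, then 334.4 and 487.8 (1.49, limma adjusted p = 0.0385). BAG7, a GTPase-activating protein for Rho1, a switch of cell wall and actin organisation, rose from near background, at 5.7 and 12.4, then 33.9 and 36.4 (2.06 ± 0.31, limma adjusted p = 0.00936).

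Several further falls lie outside these groups. HO (YDL227C) encodes the endonuclease that starts mating-type switching and is known to be transcribed in late G1. It measured 501.8 and 592.2 at 21 °C and 209.6 and 188.0 at 14.6 °C, a change of -1.46 ± 0.19 (limma adjusted p = 0.00422). Of the 52 listed G1-to-S genes none passed, 35 had a change below 0 (54.5% of all genes did) and their median was -0.12. The cyclin gene CLN2 measured 185.3 and 249.7, then 162.3 and 108.4 (-0.70, limma adjusted p = 0.313). YMR206W, of unknown function, measured 310.0 and 385.6, then 84.1 and 88.7 (-2.0 ± 0.26, limma adjusted p = 0.00379). CSR2, an arrestin-related protein that directs removal of transporters from the cell surface, measured 174.8 and 198.8, then 78.5 and 49.9 (-1.57, limma adjusted p = 0.0462). ARO5 (YGL117W) measured 245.4 and 309.6, then 91.6 and 120.3 (-1.39, limma adjusted p = 0.0273).

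The other 14 called genes lay under background on both arrays of at least 1 point, BAG7 and the clear genes left aside. Of the rises 4 are tRNA genes and 1 is a small nucleolar RNA gene, RNAs without the poly(A) tail by which the 3′ labelling kit primes. For tRNA genes CDC65, YNCB0011C and YNCD0004W the signal was at least 2.08-fold, 1.84-fold and 1.65-fold higher at 14.6 °C than background. YNCD0013C, a further tRNA gene, measured 1.3 and 0.5, then 4.5 and 14.3, and SNR56, the small nucleolar RNA gene, 0.2 and 0.3, then 6.5 and 9.9, too close to background for a fold. YMR230W-A, a short uncharacterised gene, measured 1.0 and 0.7, then 25.5 and 28.9, at least 2.60-fold higher (limma adjusted p = 5.34e-06), and was the only gene to pass in every alternative that tested it. FYV5 was at least 1.43-fold higher. Among the falls, MNN14, of cell wall mannan phosphorylation, was at least 2.32-fold lower and MSS2, which helps insert a cytochrome oxidase subunit, at least 2.28-fold lower. YCR099C measured 12.9 and 6.5, then 1.7 and 1.9. PHO2, PRR2, CIN1 and SPC24 lay under background at both points, at most 9.8 on any array. MSS2 and PHO2 are neighbours in the reference gene order.

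Stress and storage genes were low in the median, without a call. Of 44 targets of the stress factors Msn2 and Msn4, 33 had a change below 0 and the median was -0.34, and of 35 heat shock and chaperone genes 29 did, with a median of -0.41. The small heat shock gene HSP26 measured 183.0 and 277.3, then 102.8 and 108.2 (-1.09 ± 0.23, limma adjusted p = 0.0558). HSP104, a disaggregase, measured 370.5 and 309.8, then 205.4 and 156.3 (-0.92, limma adjusted p = 0.149). HSP12, a membrane-stabilising stress protein, overlapped between the points (2135.2 and 3276.6, then 2178.2 and 1988.7). All 10 trehalose genes and 13 of 16 glycogen genes had a change below 0, with medians of -0.20 and -0.41. GLC3, the glycogen branching enzyme, measured 854.6 and 960.6, then 542.9 and 402.1 (-0.96, limma adjusted p = 0.0754).

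Genes often used as signs of cold did not pass, DBP2 apart. OLE1, the fatty acid desaturase that keeps membranes fluid, measured 4716.7 and 5587.0, then 4221.6 and 4038.3 (-0.31, limma adjusted p = 0.525). The cold-shock mannoprotein gene TIR1 measured 7095.5 and 10310.7, then 6205.9 and 6241.8 (-0.46, limma adjusted p = 0.517). INO1, of inositol synthesis, overlapped between points (995.9 and 877.8, then 1280.0 and 983.5). All 10 measured seripauperin genes, a family of small cell wall proteins induced without oxygen, had a change above 0, with a median of 0.74 and none past the test. PAU15 had the largest, at 138.7 and 117.0, then 232.4 and 332.9 (1.13, limma adjusted p = 0.0885). Members of this family are nearly identical in sequence, so their probe sets are not independent, and the second cold array had the higher mean for the family (log2 9.70 against 9.01). Ergosterol genes had a median of 0.17 (36 genes), and ERG11, the sterol demethylase, measured 2912.2 and 2347.0, then 3468.5 and 3184.4 (0.35, limma adjusted p = 0.473).

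Whether the step's endpoint was a way station or a turning point was asked by setting 14.6 °C against the mean of its neighbours in the cycle, 21 °C falling and 12 °C. In this test 4 genes passed in limma at an adjusted p under 0.05 (0.0707%), 1 higher (0.0177%) and 3 lower (0.053%), 434 did at an unadjusted p under 0.05, and all 4 were dim at one point or more. PHO2, PRR2 and YCR099C were lower at 14.6 °C than at both neighbours, and YMR230W-A lay 1.68 above the mean of its neighbours with its 21 °C signals under background, which became -0.11 at a floor of 12, and was higher still at 12 °C (72.1 and 70.6). With a floor of 12 under the signals none passed, and without the second array at 14.6 °C none passed.

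In the median the called genes lay slightly farther out at 12 °C and turned on rewarming. Against 21 °C falling, the 15 rises stood at 1.52 at 14.6 °C, 1.83 at 12 °C and 0.37 at 21 °C rising. The 24 falls stood at -1.86, -2.30 and 0.84. Single genes differed, and most did not pass in the last step. HO and BAP3 lay higher at 12 °C than at 14.6 °C without passing, by 0.25 and 0.60. PRR2 and YCR099C, both dim at 14.6 °C, rose again, by 3.09 and 2.88. SUC2 measured 2923.5 and 2248.0 at 30 °C, and after the step it went to 186.4 and 195.6 at 12 °C. The change to 12 °C was -1.77 and passed (limma adjusted p = 0.00345). RGI2 measured 1318.6 and 1074.0 at 30 °C and 45.5 and 39.1 at 12 °C, and fell in each of the 3 cooling steps, by 1.29, 2.39 and 1.14. DBP2 measured 58.1 and 80.0 at 30 °C, so its rise in the first step (2.82) was larger than in the second (1.37), and at 12 °C it was at 1773.2 and 1885.9. TAD2 did not pass in the first step (0.45) or the last (0.24). AGP1 was at 1422.7 and 1076.7 at 30 °C, close to its level at 21 °C, so its first change was 0.03. BAP3 measured 376.4 and 195.2 at 30 °C and 47.1 and 51.8 at 12 °C, with no call in the first or last step. The 3 cooling steps share arrays with each other, so their values are set side by side and not compared by overlap. In the same test the first step called 631 genes (11.2%), 295 higher (5.22%) and 336 lower (5.94%), and the last 45 (0.796%), 13 higher (0.23%) and 32 lower (0.566%).

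**Figure D4:**
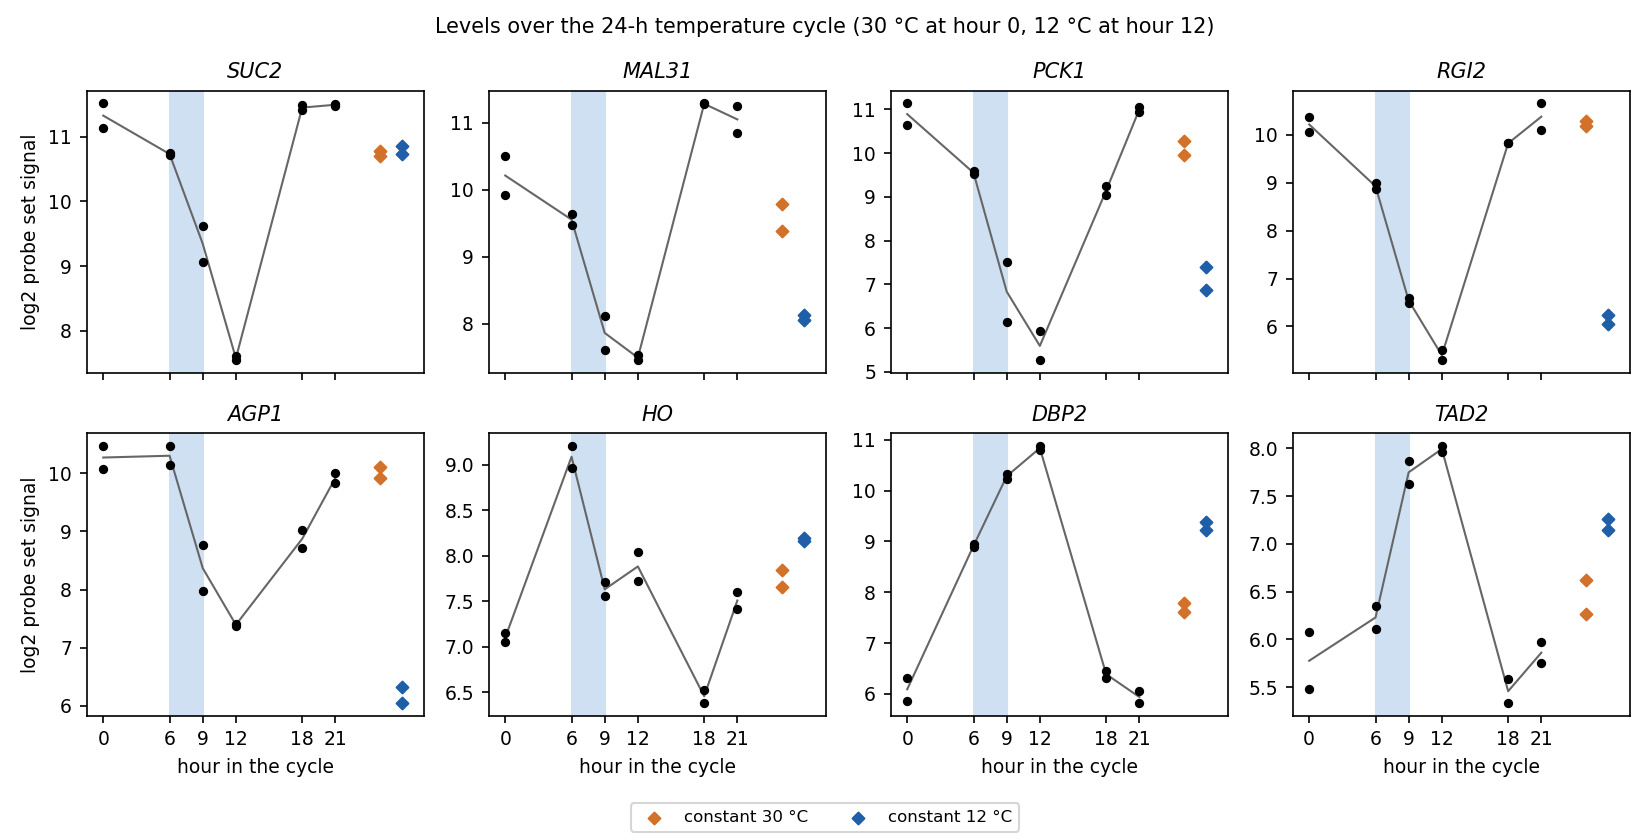
Log2 signal (vertical axes) of 8 genes against the hour of the cycle (horizontal axes), with black points for single arrays, a line through the means, and the second cooling step shaded. Diamonds at the right are cultures at a constant 30 °C or 12 °C. SUC2, MAL31, PCK1, RGI2 and AGP1 descend through the shaded step to hour 12, DBP2 and TAD2 ascend, and HO is highest at hour 6.

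Rewarming from 12 to 21 °C shares no array with the step, though it comes from the same cultures, and its test called 2605 genes (46.1%), 1246 higher (22%) and 1359 lower (24%). Of the 24 genes that fell on cooling 20 rose on rewarming (83.3% of them, 1.61% of the rewarming rises) and 1 fell, HO, with a change of -1.43. Of the 15 that rose on cooling 10 fell on rewarming (66.7%, and 0.736% of the rewarming falls) and none rose. MAL11 returned to 5591.4 and 5400.8 and ISF1 to 3091.7 and 3216.2, both above their levels at the same 21 °C on the way down. DBP2 returned to 87.9 and 79.9, below its 474.1 and 491.8 on the way down. BAP3 did not return, at 46.5 and 29.8 (-0.41, limma adjusted p = 0.341). Over 5656 genes the 2 sets of changes correlated at -0.459 (Pearson) and -0.433 (Spearman), given as a description since genes are not independent.

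The cultures at constant temperature also share no array with the step. Between constant 12 °C and 30 °C, 564 genes were higher (9.97%) and 692 lower (12.2%). Of the 24 genes that fell, 13 were lower at constant 12 °C (54.2%, and 1.88% of that list) and 2 were higher, SPC24 and YCR099C. SPC24 was under background at both constant temperatures. YCR099C measured 4.0 and 3.7 at constant 30 °C and 23.9 and 33.2 at constant 12 °C. Of the 15 that rose, 9 were higher there (60%, and 1.6% of that list) and 1 was lower, YPR145C-A. The gene-wise correlation was 0.316 (Pearson) and 0.285 (Spearman) over the 5656 genes. AGP1 was at 66.1 and 80.1 at constant 12 °C against 1111.4 and 971.4 at constant 30 °C, and RGI2 at 75.3 and 66.3 against 1242.7 and 1168.9, so both were low in either kind of cold culture. SUC2 was not, with 1698.1 and 1850.8 at constant 12 °C and 1668.7 and 1748.8 at constant 30 °C (0.05, limma adjusted p = 0.893). MAL11 was at 1354.6 and 1183.9 against 2879.4 and 1627.3 (-0.77, limma adjusted p = 0.139). The respiratory chain list had a median of -0.09 between the constant temperatures, the citric acid cycle list -0.04, and the seripauperin list -1.36, against -0.51, -0.51 and 0.74 in the step.

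The step also differed from the one before it. A test of the second change minus the first, added after the data were seen and using the 21 °C arrays in both, called 27 genes (0.477%), 16 higher (0.283%) and 11 lower (0.194%), and 668 at an unadjusted p under 0.05. Among genes that passed both this test and the step's and were above background throughout, 3 changed in opposite directions in the 2 steps. They were HO, AQR1 and YNL058C. The list medians of the 2 steps are given side by side, with no test. G1-to-S genes had 0.75 in the first step and -0.12 in the second, and amino acid biosynthesis 0.35 and -0.35. Purine and pyrimidine synthesis had 0.68 and -0.09, and Msn2 and Msn4 targets -1.16 and -0.34. Large-subunit assembly had 0.77 and 0.56, so the sign was the same in both steps for these last lists.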

How the data were processed

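Probe set intensity values deposited by the authors were used as they stand. RMA is named in the submitters' processing notes, with no version, yet the deposited intensity values are linear, reach 0 (191 values) and share 1 trimmed mean per array (about 240.2), so how they were made is not settled, and the number of arrays limits the precision. Labelling started from 200 ng of RNA per array and used a 3′ kit, per the labels' protocols. Signals were floored at 1 and put on a log2 scale. Among 9335 probe sets, 6504 name a single gene, 328 several, 2443 none and 60 are controls. Symbols came from RefSeq R64 by gene identifier, and the probe set with the highest mean stood for a gene (5656 genes; for 315 with several sets none were called in opposite directions). Background is set by 28 no-target control probe sets, at percentile 95 of their means (signal 10.46, log2 3.39). A gene under it on both arrays of a point has only a bound there: "at least" compares the bright point's mean with, per array, the higher of background and the gene's own signal.

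limma 3.58.1 (R 4.3.3) fitted 1 mean per group over 16 arrays (8 groups, 8 residual degrees of freedom), leaving out the array numbered 3 at 27.4 °C, an analytical duplicate, and p-values were Benjamini-Hochberg adjusted over all genes. Named are the largest changes without overlap (up to 12 each way), up to 4 risen and fallen genes per list, genes past the neighbour test, a fixed index set, and the other genes past the test, plus genes said to be chosen on their values. The members of the 49 gene lists and the comparison were chosen with earlier results of these data known. Alternatives were other scalings, floors, filters, moderation, array sets, weights, thresholds and left-out arrays. The test was checked on 20 simulated data sets (200 changed genes) with noise drawn independently for each gene and array. There 87.6% of changes of 2 on the log2 scale were recovered and a mean of 5.75 unchanged genes was called. No paired analysis is reported with the results, since the labels do not tie equal replicate numbers to a culture and same-numbered arrays of the 2 points did not deviate together (correlation -0.02). Between other pairs of groups this correlation ran from -0.47 (30 °C and 12 °C in the cycle) to 0.54 (constant 30 °C and 14.6 °C). Arrays of separate cultures thus deviated together in places, and the reason was not tested. Promoter sequences were not analysed here.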

Additional observations from a re-analysis of the deposited data

Results flagged for a closer look

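Among the genes that passed at the second cooling step and lay above background throughout, 3 also passed a limma test of the difference between the steps. These 3 changed in opposite directions in the first and second steps. HO stood at 141.9 and 133.0 at 30 °C, 501.8 and 592.2 at 21 °C falling and 209.6 and 188.0 at 14.6 °C, so it rose by 1.99 and then changed by -1.46, a difference of -3.45 ± 0.34 (limma adjusted p = 0.00083). The difference for HO held without each array in turn (-3.68 to -3.21) and was lost in the fit of the compared groups alone (limma adjusted p = 0.256). AQR1 stood at 166.4 and 110.4, then 304.6 and 313.5, then 134.2 and 76.1, with changes of 1.19 and -1.61 and a difference of -2.80 ± 0.53 (limma adjusted p = 0.0463). YNL058C stood at 234.5 and 202.9, then 138.5 and 129.9, then 265.7 and 310.5, with changes of -0.70 and 1.10 and a difference of 1.80 ± 0.34 (limma adjusted p = 0.0463). Both lay near the threshold, and each failed to pass without either array at 21 °C falling (limma adjusted p from 0.28 to 0.341). YNL058C also failed without any one array at 30 °C or 14.6 °C (0.053 to 0.12), and AQR1 without the second array at 14.6 °C (0.105) or at 30 °C (0.0814). HXK2, which did not pass at the second step, had changes of 1.06 and -1.01 and a difference of -2.08 ± 0.36 (limma adjusted p = 0.0333). The shared 21 °C arrays enter both changes of a gene, so a deviation there moves them in opposite directions.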

How the results depend on the processing

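The count of 39 genes depends mostly on how the spread is estimated and on single arrays. It was 36 to 50 under quantile normalization, median centring, cyclic loess, a floor of 12, the filter on dim genes and the 12 cycle arrays, though of the 48 genes at a floor of 12 only 26 were the same. It rose to 114 with array weights (48 higher, 66 lower), and with an intensity trend 38 genes were lower. The weights were equal for both arrays of a group, 0.89 at 14.6 °C and 1.69 at 21 °C falling. This setting therefore did not set the second array at 14.6 °C apart from the first. It dropped to 15 at an adjusted p under 0.01 (6 higher, 9 lower) and to 2 in a fit of the compared groups alone (1 higher, 1 lower), which has fewer residual degrees of freedom. Leaving out 1 array gave 9 to 63 genes, 4 to 18 higher and 5 to 45 lower, where the lone array is assumed to vary like the other groups. With the replicate number as a block 38 genes passed, 36 of them the same, and of the 24 clear genes MPC3, CSR2 and YPR145C-A did not. Only YMR230W-A passed in every alternative that tested it, and 2 of the 39 genes, RGI2 and ISF1, were lost only with the compared groups alone.

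Against the mean of its neighbours, 4 genes (1 higher, 3 lower) became 7 with quantile normalization and with median centring (3 higher each), 3 higher with cyclic loess, 2 higher with the array numbered 3, and 0 at a floor of 12 and with the compared groups alone. It became 1 (0 higher, 1 lower) with dim genes left out, all probe sets, the 12 cycle arrays, or an adjusted p under 0.01. Leaving out 1 array gave 0 to 10, 0 to 3 higher and 0 to 7 lower. YMR230W-A turned from 1.68 to -0.11 at a floor of 12. Over the named genes and alternatives, 1109 changes kept their direction and side of the threshold, 181 lost the call, 61 gained it and none reversed, and 633 list medians moved by less than the replicate spread while 102 moved by more. Scaling moved the median of all genes by at most 0.06.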

Other observations

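Some wall and mating genes not described above differed between the points without passing, and were chosen after their values were seen. CWP1, a mannoprotein of the cell wall, measured 169.1 and 163.9 at 21 °C falling and 458.8 and 470.4 at 14.6 °C (1.48 ± 0.39, limma adjusted p = 0.118), and PIR3, another wall protein, 210.6 and 197.2, then 440.9 and 546.7 (1.27 ± 0.38, limma adjusted p = 0.17). CTS1, the chitinase that separates daughter cells, measured 2629.9 and 2823.1, then 1731.1 and 1470.4 (-0.77 ± 0.22, limma adjusted p = 0.148). The 48 cell wall genes had a median change of 0.03 and none passed.

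MF(ALPHA)1, the alpha-factor gene that a MATa strain is not known to use, measured 204.8 and 228.3 at 30 °C, 534.5 and 654.5 at 21 °C falling, 1106.7 and 1455.6 at 14.6 °C and 2068.4 and 1581.9 at 12 °C. The step's change was 1.10 ± 0.24 and did not pass (limma adjusted p = 0.0695). Cultures at a constant 12 °C measured 2649.4 and 2623.4 against 192.3 and 279.5 at a constant 30 °C (3.51, limma adjusted p = 2.94e-06). MF(ALPHA)2 measured 13.9 and 13.5, then 17.7 and 22.4 in the step (0.54, limma adjusted p = 0.336). It was also higher at constant 12 °C, at 25.8 and 27.7 against 9.3 and 8.8 at constant 30 °C (1.56, limma adjusted p = 0.000758). STE3 stayed between 34.9 and 56.0 on the step's 4 arrays.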
